A study of Homo sapiens with 108 samples.

Results

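The 7 genes described here encode proteins that bind AU-rich or U-rich stretches of mRNA: ZFP36, ZFP36L1, ZFP36L2, ELAVL1, KHSRP, TIA1 and TIAL1. They were taken by name out of 19761 genes with counted 3′ UTR intervals, and each symbol matched 1 Ensembl identifier. Their mRNA level and their 4-thiouridine (4SU) label were read by SLAM-seq in HEK293T, an established human line derived from embryonic kidney. Cells carried a lentiviral short hairpin RNA against CNOT4, ZFP36L1, BRCA1, MAZ, PHF7, ZNF706, ZMAT3 or ZMAT5, or a non-targeting hairpin (NT), and every arm was selected with puromycin. All arms received 10 µM 4SU for 24 h and then 1 mM uridine for 0, 2, 4 or 8 h, with 3 replicates at each time, so that 9 arms of 12 libraries gave 108 libraries. Each arm rests on 1 cell line, and the hairpin of each library is known only from its label.

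An AU-rich element is a run of ATTTA repeats in a 3′ UTR that shortens or lengthens the life of the mRNA according to the protein bound to it. ZFP36 (tristetraprolin), ZFP36L1 and ZFP36L2 bind it with a pair of CCCH zinc fingers and bring in the CCR4-NOT deadenylase, and KHSRP also promotes decay through its KH domains. ELAVL1 (HuR) stabilises many bound mRNAs, while TIA1 and TIAL1 (TIAR) repress translation, enter stress granules and also act in splicing. Several of these mRNAs carry AU-rich elements of their own, and HEK293T cells are commonly used to study such proteins.

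Reads in 3′ UTRs ranged from 63659 to 30750027 per library, with a median of 14870063. By arm the median was 17141085 to 21007825 in MAZ, PHF7, ZMAT3, ZMAT5 and ZNF706. It was 10187470 in NT, 8901564 in BRCA1, 6158870.5 in ZFP36L1 and 4529224 in CNOT4. PHF7 8 h replicate 3 was the shallowest library, CNOT4 2 h replicate 3 held 1781724 reads, and the 3 CNOT4 8 h libraries differed from the rest of their arm, since 5.82% to 5.91% of their reads were multimapped beside 9.34% to 11.9% at earlier times. Called levels, half-lives and list counts of the CNOT4 and PHF7 arms are given with and without these 5 libraries, the last 2 kinds by a choice made after the data were seen. Libraries of the CNOT4 and ZFP36L1 arms covered 27.7 to 34.0 and 25.9 to 33.0 T positions per read, against 37.1 to 37.8 in NT, with 5.82% to 11.9% and 9.21% to 12.4% multimapped reads against 6.66% to 6.91%. VIM and LIN28B had reads in all 108 libraries, while NEFM was at 0 in 2 and PAX2 in 62. Of 8 markers of other cell types, all but COL1A1 had a median of 0. Their summed level was 0 to 148.5 CPM, the highest in the PHF7 library of 63659 reads. Outside the PHF7 arm it was at most 36.9 CPM. A 3′ tag is given as CPM, counts scaled to the library size, without division by length, so levels are compared between arms and never between genes. In bulk libraries, fewer cells with an mRNA and less of it per cell cannot be told apart.

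The sequences that bear on the level measurement are the hairpin targets. The study lists the following 21-base stretches for ZFP36L1 and for the non-targeting hairpin, here written 5′ to 3′ and in lower case throughout.
ZFP36L1 hairpin: gggttgcctgctggacagaaa
non-target hairpin: caacaagatgaagagcaccaa
The ZFP36L1 stretch matched the transcripts of 1 gene without a mismatch, ZFP36L1 itself, at chr14:68790434-68790454 (hg38, minus strand). All 21 bases lie in the coding part of ZFP36L1 and also inside the counted interval, 2773 bases before its last counted base, so reads from the poly(A) end lay downstream of it. Its best match among the other 6 mRNAs had 7 mismatches, in ZFP36L2 and ELAVL1. The non-targeting stretch matched no annotated gene in full and had at least 7 mismatches to each of the 7 mRNAs.

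AU-rich stretches of the members themselves are shown because they are the feature by which the mRNAs can be compared. Each line is the 30-base window that holds the most ATTTA copies in the interval with most of the reads of that gene, read from the hg38 genome on the strand of the gene, with ATTTA in capitals.
ZFP36: cctttATTTAtgacgactttATTTAttcta
ZFP36L1: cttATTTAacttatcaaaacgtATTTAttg
ZFP36L2: tgaaaactATTTAacttATTTAttatcttg
ELAVL1: ATTTAtacctATTTAtgtATTTATTTAttg
TIA1: agatacaatgtATTTATTTAaaagattcat
TIAL1: ttATTTAgacacttcaatgtaccaATTTAt
The windows lie at chr19:39409188-39409217 (plus strand), chr14:68788345-68788374, chr2:43223452-43223481, chr19:7961837-7961866, chr2:70212588-70212617 and chr10:119574390-119574419 (all minus strand), in the order shown. The main interval of KHSRP holds no ATTTA, while 62.9% of intervals of like length hold at least 1. ZFP36 holds 5 copies of ATTTA in 715 bases, a number reached by 4.62% of intervals of 80% to 125% of that length. The 7-base TATTTAT, which contains ATTTA and was searched on the sense strand like it, occurs 3 times in ZFP36, ZFP36L1 and ZFP36L2 and 5 times in ELAVL1. As many copies were found in 0.930%, 8.48%, 4.32% and 4.49% of intervals of like length, respectively. TIA1 and TIAL1 hold 1 copy each, a number reached by 56.7% and 63.1%. These are matches of letters in the counted windows, not measured binding sites.

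The level of ZFP36L1 mRNA was higher in the CNOT4 arm and in the libraries labelled ZFP36L1, and lower in the ZMAT5 arm. KHSRP changed in 7 of 8 arms, upward in those same CNOT4 and ZFP36L1 arms and downward in MAZ, PHF7, ZMAT3, ZMAT5 and ZNF706. ELAVL1 fell in 4 arms, ZFP36L2 and TIAL1 in 2 each, and ZFP36 and TIA1 in none. A gene was called at an adjusted p under 0.05 and a fold over 1.2 in edgeR's quasi-likelihood test of 12 libraries against the same 12 NT libraries. By that rule 18 of 56 gene and arm tests passed, 4 up and 14 down, against 13.7% of 105546 tests over all genes and arms. In CNOT4 5 of 7 members passed against 27.0% of all genes, 2 up and 3 down beside 13.5% of genes in each direction. In the libraries labelled ZFP36L1 5 of 7 passed against 40.0%, 2 up beside 21.7% and 3 down beside 18.3%. In ZMAT5 3 of 7 passed against 9.51%, all down, beside 5.29% up and 4.22% down. In MAZ 2 of 7 passed against 8.74%, both down, beside 5.19% up and 3.55% down. PHF7, ZMAT3 and ZNF706 had 1 of 7 each, downward. Their backgrounds were 8.41% in PHF7 (3.89% up, 4.53% down), 10.2% in ZMAT3 (5.49% up, 4.75% down) and 5.15% in ZNF706 (2.85% up, 2.29% down). In BRCA1 0 of 7 passed beside 0.0785% (0.0393% in each direction), with 0 calls by DESeq2. There 1 of 7 had an unadjusted p under 0.05, beside 877 of 12735 genes. All 8 comparisons share the NT libraries and are therefore not independent of each other.

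**Figure D1:**
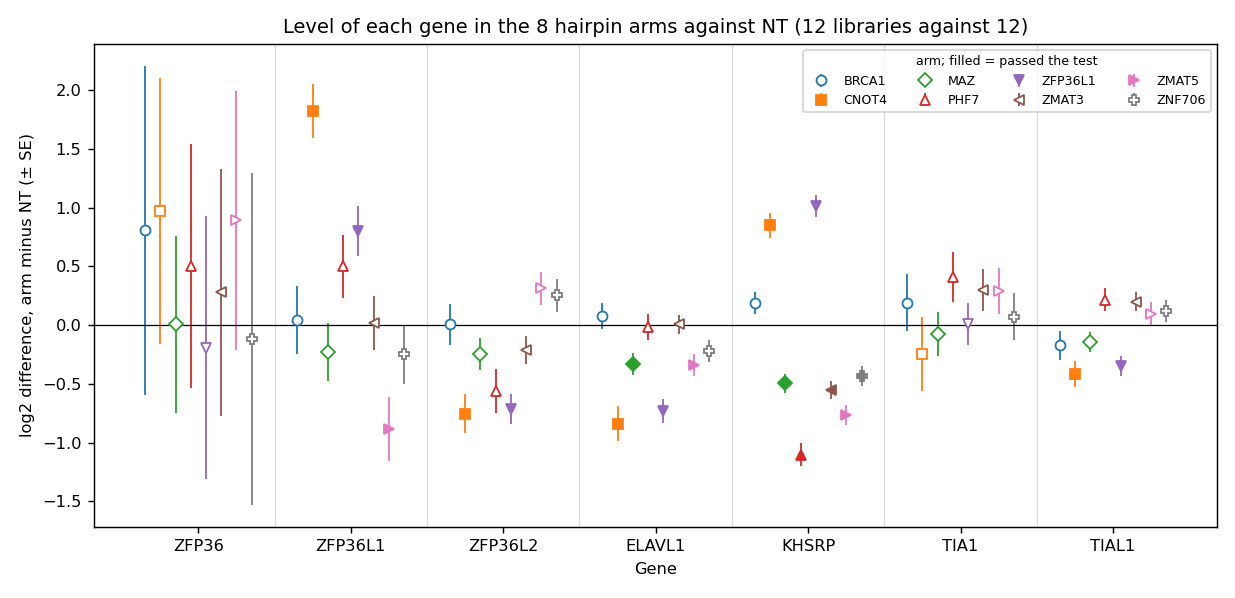
Difference in log2 level (y axis, arm minus NT, ± SE) of each of the 7 genes (x axis) in the 8 hairpin arms, with filled symbols for those that passed the test. ZFP36L1 in CNOT4 at 1.82 and KHSRP in PHF7 at -1.10 are the extremes, and the wide errors of ZFP36 go with its low counts.

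ZFP36L1, the member whose hairpin was among the 8, was counted in 1 interval at chr14:68787661-68790490, which spans its 1874-base 3′ UTR and 955 coding bases. NT libraries lay between 7.14 and 64.2 CPM with a median of 42.2, and the libraries labelled ZFP36L1 between 46.6 and 91.7 with a median of 62.6. The groups overlapped, and the mean was 64.3 ± 13.0 against 37.2 ± 17.2 (SD, n = 12 each), a log2 difference of 0.80 (SE 0.21, edgeR adjusted p = 0.0023). Its mRNA was thus not lower under its own label. The study reports a qPCR check of its SLAM-seq knockdowns, and the values of that check are not given here. That these libraries carried the listed hairpin is inferred from the study's methods. At 0 h the labelled libraries held 63.7, 64.0 and 91.7 CPM against 31.9, 47.1 and 64.2 in NT, and at 8 h 69.3, 73.7 and 80.2 against 17.4, 44.5 and 57.7. Taken at 0 h only, the log2 difference was 0.60 (edgeR adjusted p = 0.24), and without replicate 1 it was 0.59 (adjusted p = 0.073), neither past the threshold.

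The CNOT4 arm, whose target gene encodes a RING-type ubiquitin ligase, had the highest ZFP36L1 level. Its 12 libraries ranged from 86.4 to 192.5 CPM with a median of 125.3, and every one lay above every NT library. The log2 difference was 1.82 (SE 0.23, edgeR adjusted p = 2.6e-07), and 1.80 (adjusted p = 2.2e-07) without the 4 CNOT4 libraries that stand apart. The CNOT4 and ZFP36L1 arms resemble each other in T positions per read, and set directly against CNOT4 at 0 to 4 h the libraries labelled ZFP36L1 were lower in ZFP36L1 mRNA by 1.04 on the log2 scale (SE 0.14, edgeR adjusted p = 0.00028). That was the 1 member of 7 to differ between these arms, where 3.19% of all genes did. The part that read composition has in either difference from NT was not tested.

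In the ZMAT5 arm, named for a protein of the minor spliceosome, ZFP36L1 ranged from 11.7 to 36.3 CPM with a median of 17.6. It overlapped NT and was lower by 0.88 on the log2 scale (SE 0.27, edgeR adjusted p = 0.031). The call was lost without replicate 2 (log2 -0.74, adjusted p = 0.30), without replicate 3 (-0.73, adjusted p = 0.24) or at 0 h only (-1.17, adjusted p = 0.33). Set against the MAZ, PHF7, ZMAT3 and ZNF706 arms together, it was lower by 0.92 (SE 0.17, adjusted p = 4.0e-05), where 14.9% of all genes were called. PHF7, with 0.50 (SE 0.27, adjusted p = 0.30) against NT, was higher than the other 4 arms by 0.86 (SE 0.15, adjusted p = 1.2e-05), where 12.6% of all genes were. In order of median level the arms ran ZMAT5, ZNF706, MAZ, BRCA1, ZMAT3, NT, PHF7, ZFP36L1 and CNOT4, and from ZNF706 to PHF7 none was called different from NT.

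ZFP36L2, a paralog that binds the same element, moved the other way in the CNOT4 and ZFP36L1 arms. NT libraries ranged from 84.2 to 248.1 CPM with a median of 126.9, CNOT4 from 51.0 to 122.7 with a median of 75.5, and ZFP36L1 from 67.2 to 94.6 with a median of 79.1. Most libraries of both arms lay below all of NT, but the ranges overlapped. The differences were -0.75 (SE 0.16, edgeR adjusted p = 0.00068) and -0.71 (SE 0.13, adjusted p = 2.6e-05) on the log2 scale. Without the libraries that stand apart the CNOT4 difference was -0.90 (adjusted p = 7.2e-05). At 0 h only neither passed (log2 -0.55, adjusted p = 0.19, and -0.32, adjusted p = 0.39), and CNOT4 also missed without replicate 1 (log2 -0.64, adjusted p = 0.05031). In PHF7 the difference was -0.56 (SE 0.18, adjusted p = 0.055), and -0.51 (SE 0.14, adjusted p = 0.011) without the PHF7 library of 63659 reads, in which ZFP36L2 had no read. Set against the 4 other arms of like read composition, ZFP36L2 was lower in PHF7 by 0.59 (SE 0.12, adjusted p = 0.00031) and higher in ZMAT5 by 0.47 (SE 0.12, adjusted p = 0.0038) and in ZNF706 by 0.40 (SE 0.12, adjusted p = 0.028), the last beside 9.11% of all genes called.

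ZFP36, the founding member of the family and an immediate-early gene, was barely detected. NT libraries held 0 to 13.4 CPM with a median of 1.15, and 5 of them had no read, which allows up to 0.238 to 0.366 CPM in each at a limit of 3 reads. Over all arms 14 libraries had no ZFP36 read, among them the PHF7 library of 63659 reads, for which that limit is 47.1 CPM. The highest value was 21.9 CPM in a BRCA1 library. None of 8 arms passed edgeR's test and none reached an unadjusted p under 0.05, while DESeq2 also called 0. The log2 differences of -0.19 to 0.97 had SEs of 0.75 to 1.41, so a difference of that size was not detectable. Replicates scattered widely: at 4 h in NT they held 0, 11.7 and 11.8 CPM. The limit of 3 reads therefore holds for a single library and does not bound the level of its group.

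**Figure D2:**
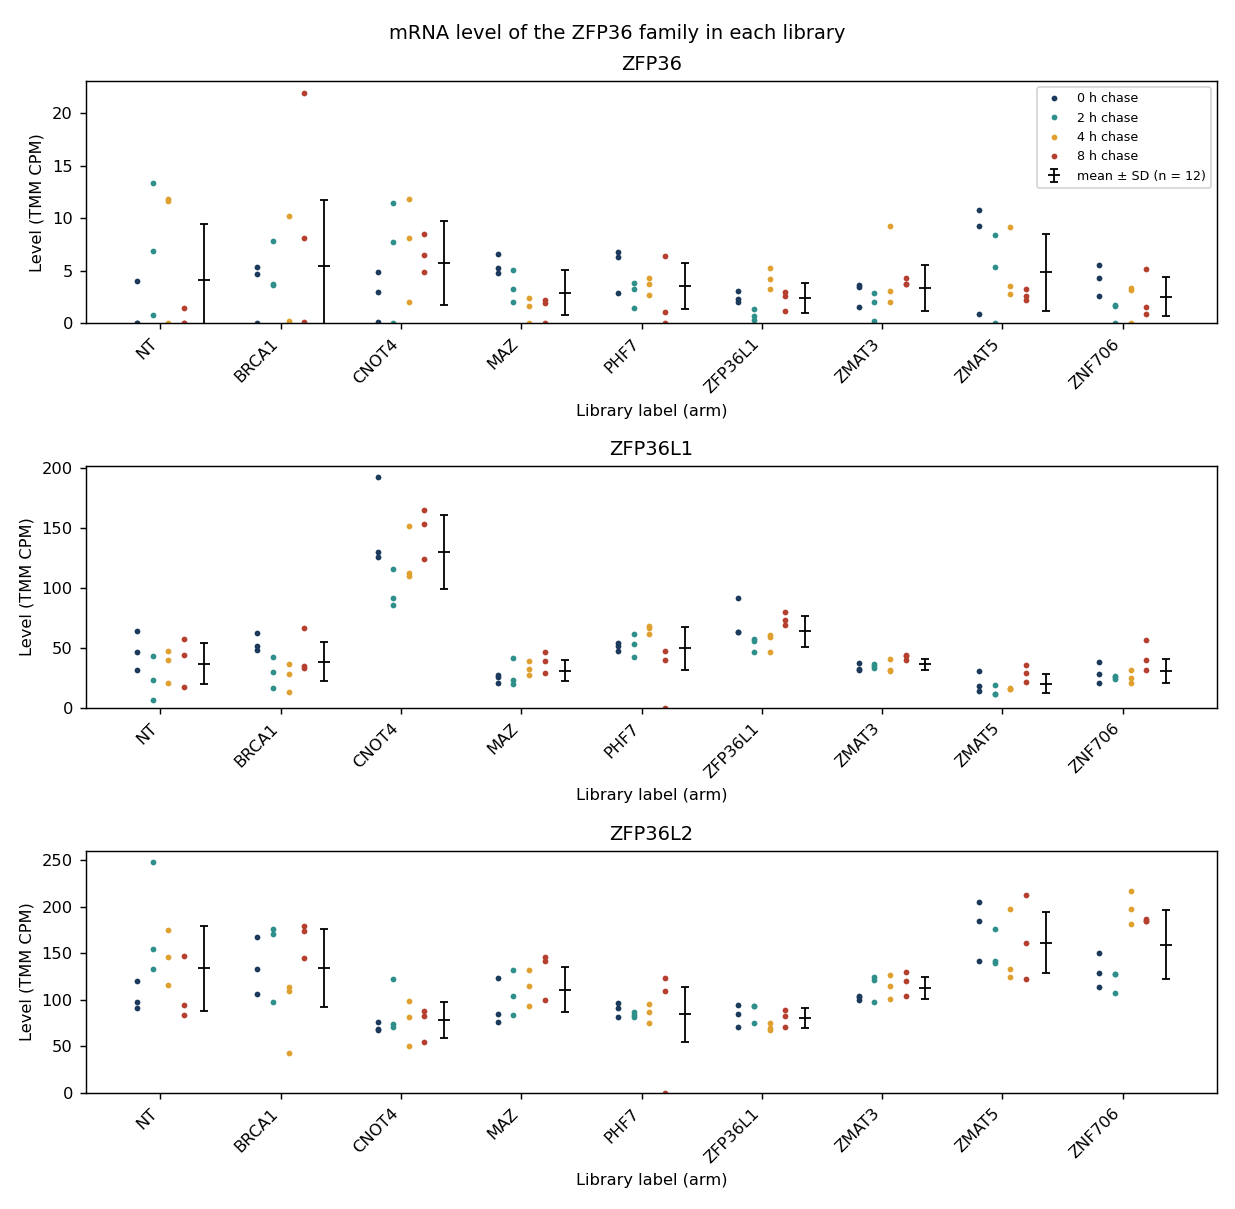
Level of ZFP36, ZFP36L1 and ZFP36L2 (y axis, TMM-normalised CPM) in each library by arm (x axis), coloured by chase time, with mean ± SD over 12 libraries in black. CNOT4 stands above NT for ZFP36L1, CNOT4 and ZFP36L1 stand mostly below it for ZFP36L2, and ZFP36 is near 0 in all arms, with 1 PHF7 8 h library at 0 in each panel.

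KHSRP had the most calls of the 7. NT libraries ranged from 649.6 to 1140 CPM with a median of 889.2, CNOT4 from 792.9 to 2186 with a median of 1745, and ZFP36L1 from 1085 to 2450 with a median of 1820. Most libraries of both arms lay above all of NT, with some overlap. The differences were 0.85 (SE 0.11, edgeR adjusted p = 2.1e-07) and 1.01 (SE 0.096, adjusted p = 9.1e-11) on the log2 scale, and CNOT4 without the libraries that stand apart gave 0.74 (adjusted p = 3.3e-07). PHF7 ranged from 262.1 to 516.0 CPM with a median of 425.3, and every library lay below every NT library (log2 -1.10, SE 0.0996, adjusted p = 2.5e-09). Without the shallow library the PHF7 range was 288.7 to 516.0 CPM and the log2 difference -1.07.

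KHSRP was also lower in ZMAT5 (log2 -0.76), ZMAT3 (-0.55), MAZ (-0.49) and ZNF706 (-0.43), with medians of 520.2, 604.7, 646.3 and 640.4 CPM that overlapped NT in their ranges and edgeR adjusted p-values of 2.1e-08, 4.7e-06, 5.1e-05 and 0.00056. BRCA1 was at 0.19 (SE 0.090, adjusted p = 0.71). The arms in which KHSRP was lower than in NT are those of highest median depth. The part that depth has in these differences was not tested. The ZNF706 call was lost without replicate 2 (-0.31, adjusted p = 0.14), and at 0 h only MAZ (-0.65, adjusted p = 0.096) and ZMAT3 (-0.59, adjusted p = 0.13) missed, with differences no smaller than those over all times. Set against each other, PHF7 was lower than the other 4 arms (log2 -0.55, SE 0.079, adjusted p = 2.0e-07), beside 12.6% of all genes called. ZNF706 was higher (0.28, SE 0.091, adjusted p = 0.035), beside 9.11%. MAZ, ZMAT3 and ZMAT5 did not pass there, with 0.19, 0.12 and -0.15, beside 8.45%, 7.75% and 14.9% of all genes called. The counted intervals of KHSRP cover 1335 of the 1925 annotated 3′ UTR bases (69.4%) and stop 247 bases before the annotated end, so tags at that end lie outside the count.

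ELAVL1 was lower in CNOT4 and ZFP36L1, and less so in MAZ and ZMAT5. NT libraries ranged from 232.5 to 409.7 CPM with a median of 323.3, CNOT4 from 54.2 to 234.0 with a median of 188.0, and ZFP36L1 from 129.6 to 248.6 with a median of 196.1. The lowest CNOT4 value came from a library that stands apart, and without those the range was 147.9 to 225.6 CPM, below all of NT, with a log2 difference of -0.86. With all libraries the differences were -0.84 (SE 0.15, edgeR adjusted p = 5.6e-05) and -0.73 (SE 0.10, adjusted p = 3.3e-07) on the log2 scale. MAZ, with a median of 256.5 CPM, and ZMAT5, with 243.5 CPM, were lower by 0.33 (SE 0.091, adjusted p = 0.016) and 0.34 (SE 0.093, adjusted p = 0.013). Both calls were lost without replicate 1 (-0.20, adjusted p = 0.29, and -0.28, adjusted p = 0.18) and without replicate 2 (-0.37, adjusted p = 0.067, and -0.34, adjusted p = 0.099). At 0 h only they missed the threshold at larger differences, -0.62 (adjusted p = 0.13) and -0.59 (adjusted p = 0.085), and neither passed against the other 4 arms of like composition (-0.19 and -0.21). The interval at chr19:7958580-7963485, its annotated 3′ UTR, took 96.0% of the ELAVL1 reads.

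TIAL1 was lower in CNOT4 and ZFP36L1, and TIA1 was not called in any arm. TIAL1 ranged from 127.8 to 247.7 CPM in NT with a median of 210.5, from 120.7 to 194.7 in CNOT4 with a median of 154.7, and from 126.0 to 185.1 in ZFP36L1 with a median of 164.4. The groups overlapped, and the differences were -0.42 (SE 0.11, edgeR adjusted p = 0.0051) and -0.35 (SE 0.087, adjusted p = 0.0016) on the log2 scale. Without the libraries that stand apart, CNOT4 was at -0.39 (adjusted p = 0.016). Against the other 4 arms, TIAL1 was lower in MAZ by 0.30 (SE 0.066, adjusted p = 0.00093), beside 8.45% of all genes called. Against NT it had missed in MAZ (-0.14, adjusted p = 0.32).

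The reads of TIAL1 were spread over several counted intervals, and their share moved with the arm. The last interval, at chr10:119571803-119575791, took 73.6% to 97.3% of the TIAL1 reads in NT, with a median of 88.1%. Its lowest share was 94.6% in CNOT4, with a median of 97.8%, and 94.5% in ZFP36L1, with a median of 95.9%. Medians in the other 6 arms were 78.4% to 82.9%. Counted in that interval alone, TIAL1 was at -0.22 in CNOT4 (edgeR adjusted p = 0.17) and -0.17 in ZFP36L1 (adjusted p = 0.16), and neither call was kept. Both calls were also lost at 0 h only (-0.35, adjusted p = 0.41, and -0.17, adjusted p = 0.70), and that in CNOT4 without replicate 1 (-0.42, adjusted p = 0.088). The next interval upstream, at chr10:119576612-119576750, took 6.80% of TIAL1 reads in NT by median and 9.35% to 12.8% in those other 6 arms. These shares were not tested.

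TIA1 ranged from 37.0 to 156.5 CPM in NT with a median of 50.8, and medians in the other arms were 59.3 to 88.1 CPM. Its log2 differences over all chase times were -0.24 to 0.41, with SEs of 0.18 to 0.31. By edgeR's test 0 of 8 passed, with 0 at an unadjusted p under 0.05 and 0 calls by DESeq2. In MAZ it was lower than in the 4 other arms by 0.36 (SE 0.11, adjusted p = 0.030), beside 8.45% of all genes called. The interval at chr2:70209445-70212721 took 27.6% to 99.5% of its reads in single NT libraries.

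**Figure D3:**
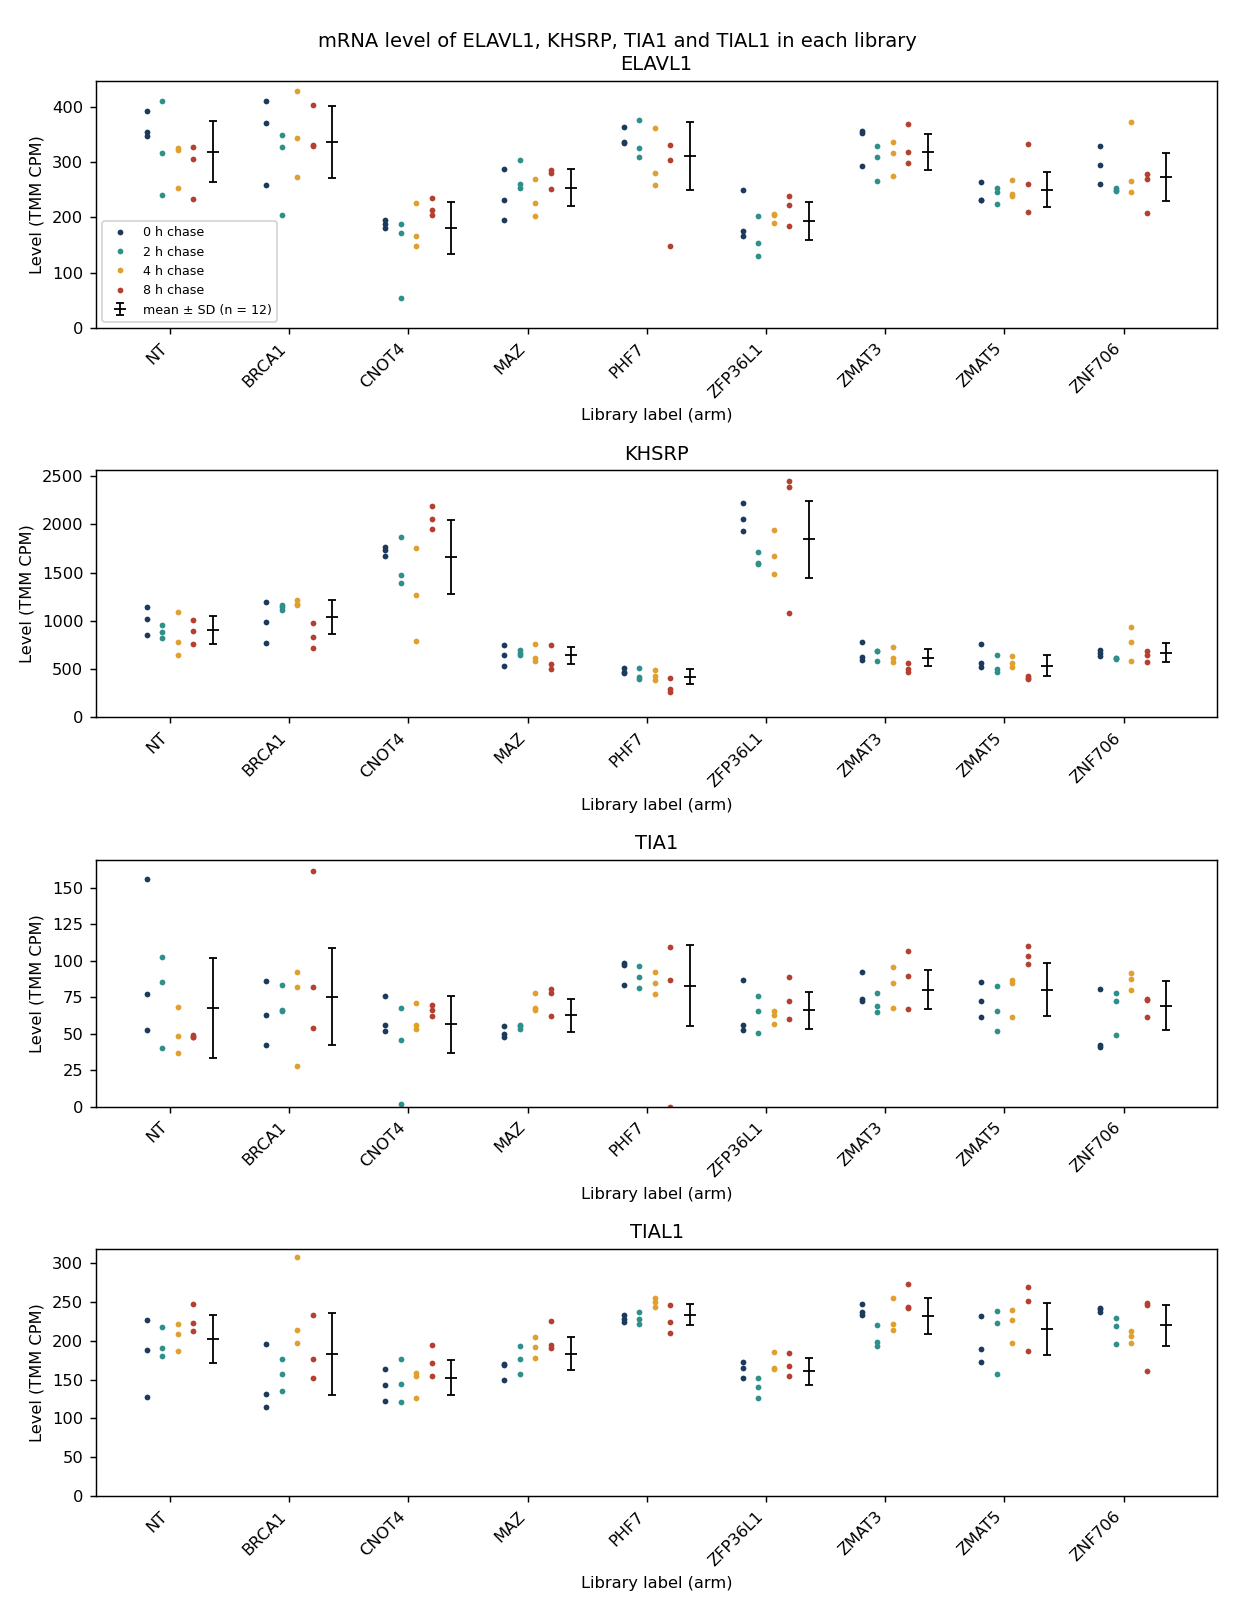
Level of ELAVL1, KHSRP, TIA1 and TIAL1 (y axis, TMM-normalised CPM) in each library by arm (x axis), coloured by chase time, with mean ± SD over 12 libraries in black. KHSRP is high in CNOT4 and ZFP36L1 and low in PHF7, and ELAVL1 is low in CNOT4 and ZFP36L1.

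Each level was next read over the chase, which asks whether the level itself was stable while the label was lost. In NT at 8 h against 0 h, 0 of 7 members passed edgeR's test, beside a background of 0.0% of 12126 genes. TIA1 alone had an unadjusted p under 0.05 (log2 -0.98, SE 0.42, adjusted p = 0.95), beside 615 of the 12126 genes, and DESeq2 also called 0 of 7. Nor did any difference from NT depend on chase time by the test: 0 of 56 passed, with 8 at an unadjusted p under 0.05 and 0 by DESeq2. Those 8 were TIA1 in MAZ, ZMAT3, ZMAT5 and ZNF706, ZFP36L2 in BRCA1, ZMAT5 and ZNF706, and KHSRP in BRCA1. The backgrounds of that test were 0.571% in CNOT4, 0.0157% in BRCA1 and 0.0% in the other 6 arms. At an unadjusted p under 0.05, the share of all genes ran from 636 of 13308 in CNOT4 to 1161 of 13253 in ZFP36L1. In every arm TIA1 was below NT at 0 h (log2 -0.90 to -0.04) and above it at 8 h (0.44 to 1.13). Its mean in NT was 95.3 CPM at 0 h and 48.2 CPM at 8 h, and all arms share these libraries. ZFP36L1 in CNOT4 was at log2 1.63, 2.01, 1.78 and 1.87 at 0, 2, 4 and 8 h. KHSRP in PHF7 was at -1.06 at 0 h, -0.94 at 4 h and -1.44 at 8 h. The last value includes the library of 63659 reads, which held 30 KHSRP reads (262.1 CPM), and the other PHF7 libraries at 8 h were at 288.7 and 405.5 CPM against 760.8 to 1005 in NT.

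The label at 0 h, after 24 h of 4SU and before the chase, was compared between arms. It is given as the T>C rate, the percentage of covered T positions read as C. By the test it was higher for all 6 testable members in MAZ and ZMAT3 and for none in the other 6 arms. ZFP36 had 0 or 1 converted base per NT time point and was not tested. For ZFP36L2 the NT libraries stood at 2.20%, 2.23% and 3.34%, MAZ at 3.93%, 4.42% and 4.80%, and ZMAT3 at 4.15%, 4.29% and 5.13%, with no overlap between NT and either arm. The log2 differences were 0.76 (SE 0.21, edgeR adjusted p = 0.025) and 0.81 (SE 0.24, adjusted p = 0.037). ZFP36L1 stood at 0.874%, 1.23% and 1.64% in NT, 2.85%, 4.11% and 5.81% in MAZ and 2.62%, 4.54% and 5.67% in ZMAT3 (log2 1.77, adjusted p = 0.021, and 1.78, adjusted p = 0.028).

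Those 12 calls of 48 stand beside 37.5% of all genes called in MAZ and 31.1% in ZMAT3, and the background was 3.69% in ZMAT5, 0.0407% in ZFP36L1 and 0.0% in the others. The label pooled over genes was 2.95% and 3.03% in these arms against 1.75% in NT. Relative to that pooled rate 0 of 48 tests passed edgeR, with 13 at an unadjusted p under 0.05. No share over all genes is given beside these 13, so they are not read as a result. For the single members the relative log2 differences in MAZ ran from -0.06 for TIAL1 to 1.05 for ZFP36L1. That of ZFP36L1 was above 0 in every arm, 0.68 in the libraries labelled ZFP36L1 and 0.96 to 1.14 in the others. All of these were set against the same 3 NT libraries. In the libraries labelled ZFP36L1 the label of ZFP36L1 was 2.22 ± 0.32% against 1.25 ± 0.38% in NT (SD, n = 3 each), a log2 difference of 0.83 (SE 0.34, adjusted p = 0.39). Each of these 0 h tests compares 3 libraries with 3, and without replicate 1, 2 or 3 the number of calls fell to 5, 6 and 3.

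Over the chase the members separated into short-lived and longer-lived mRNAs. ZFP36L1 and ZFP36L2 lost most of their label within 2 h, TIAL1 lost it more slowly, and ELAVL1 and KHSRP still carried a large share of theirs at 8 h. In NT the T>C rate of ZFP36L2 fell from 2.59 ± 0.65% at 0 h to 0.837 ± 0.16% at 2 h, 0.339 ± 0.15% at 4 h and 0.00835 ± 0.0091% at 8 h (SD, n = 3). ZFP36L1 fell from 1.25 ± 0.38% to 0.0708 ± 0.11% at 2 h, and KHSRP from 1.92 ± 0.094% to 1.60 ± 0.13%. At 8 h KHSRP was at 0.956 ± 0.073% and ELAVL1, which began at 1.66 ± 0.18%, at 0.743 ± 0.19%.

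**Figure D4:**
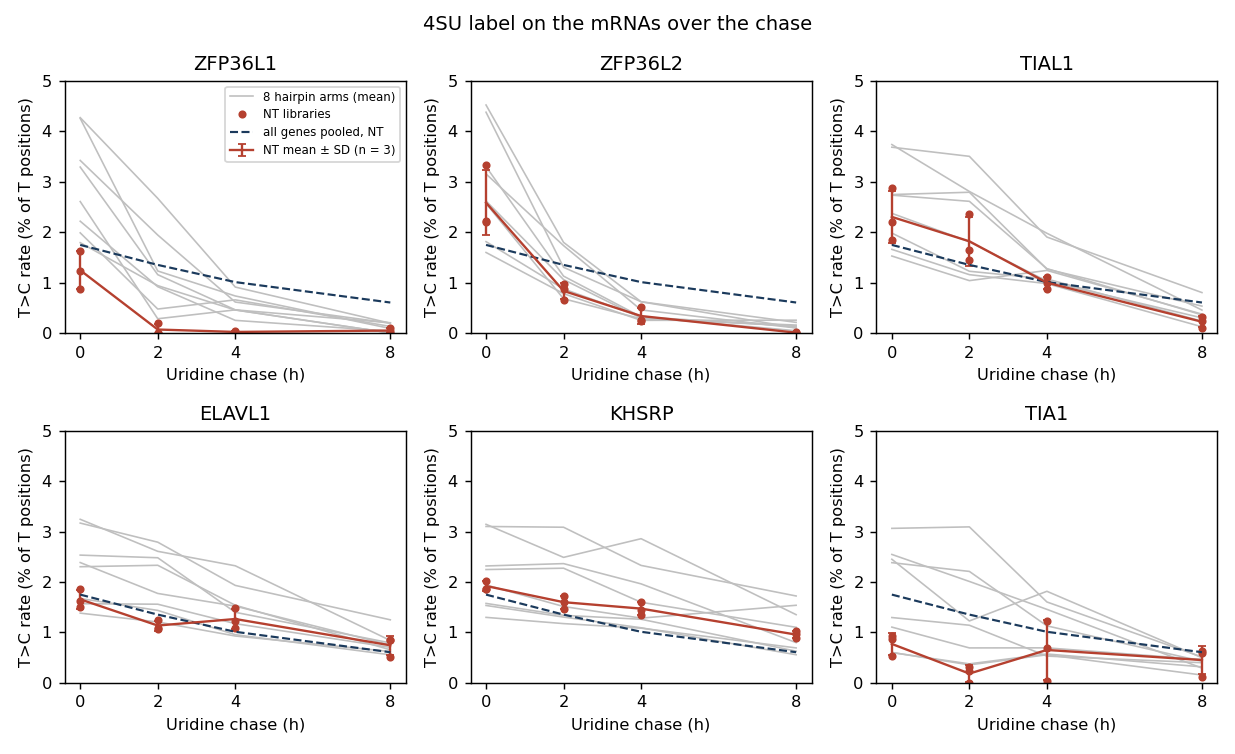
T>C rate (y axis, percentage of covered T positions) over the chase (x axis, h) for 6 of the genes, with NT libraries and their mean ± SD in red, the mean of each hairpin arm in grey and all genes pooled in NT as a dashed line. The NT rate of ZFP36L2 drops from 2.59% to 0.837% within 2 h while that of KHSRP drops from 1.92% to 1.60%.

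Half-lives were fitted to the mean of the replicates as a first-order loss and kept at an R² over 0.6. In NT they were 0.568 h for ZFP36L1, 1.27 h for ZFP36L2, 3.40 h for TIAL1, 7.04 h for ELAVL1 and 8.51 h for KHSRP, against a median of 3.27 h over 5544 genes. A shorter half-life was found for 1.73%, 8.87%, 52.4%, 85.5% and 90.0% of those genes, in the same order. The values of ZFP36L1 and ZFP36L2 lie before the first chased sample, at 2 h. Single-replicate curves gave 0.272 and 0.924 h for ZFP36L1, 1.15 to 1.49 h for ZFP36L2, 3.38 to 3.41 h for TIAL1, 5.91 and 6.29 h for ELAVL1 and 6.59 to 11.5 h for KHSRP. The ELAVL1 value from the means lies within the KHSRP range, and that pair was not separated by these values. The ELAVL1 curve of the remaining replicate fell under that R², and the value from the means lay above both of the others. The order of ZFP36L1 and ZFP36L2 depends on the measure, since the slopes of the edgeR model over all times were 0.38 per h for ZFP36L1 and 0.68 per h for ZFP36L2 in NT. No half-life was kept for TIA1 in NT, whose 4 means of 0.770%, 0.183%, 0.651% and 0.452% did not fall steadily.

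In the hairpin arms ZFP36L1 and ZFP36L2 were again the shortest-lived members with a curve, while ELAVL1, at 7.21 h, exceeded KHSRP, at 6.51 h, in ZMAT5. Half-lives of ZFP36L1 ran from 0.748 h in BRCA1 to 2.19 h in ZMAT3, and those of ZFP36L2 from 1.11 h in BRCA1 to 1.85 h in CNOT4, both below the median half-life of every arm. TIAL1 ran from 3.38 to 5.52 h, ELAVL1 from 5.21 to 8.56 h and KHSRP from 6.51 to 10.5 h. The 5.52 h of TIAL1 was in CNOT4, where 1 single-replicate curve was kept, at 0.162 h. KHSRP kept no curve in BRCA1, where its slope was 0.025 per h against 0.086 in NT (edgeR adjusted p = 0.53). TIA1, with a curve in 6 arms, ran from 3.98 to 6.84 h. In all, 50 of 63 member and arm curves were kept. Half-lives over 8 h extend past the last sample, and those under 2 h lie before the first chased sample. Without the PHF7 library of 63659 reads, the PHF7 half-lives were 10.6 h in place of 8.22 h for KHSRP, 7.64 h in place of 6.22 h for ELAVL1 and 4.39 h in place of 4.10 h for TIAL1, while those of ZFP36L1, ZFP36L2 and TIA1 did not use it. Without the libraries that stand apart, CNOT4 ends at 4 h, and its half-lives were 1.82 h for ZFP36L1 and 2.38 h for ZFP36L2 (1.47 and 1.85 h with them). They were 7.54 h for TIA1, 11.6 h for ELAVL1 and 15.8 h for KHSRP, all past that last sample (6.84, 8.56 and 10.5 h with them), and TIAL1 kept no curve. With all CNOT4 libraries, its single-replicate values for ZFP36L2 ran from 0.256 to 7.20 h.

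**Figure D5:**
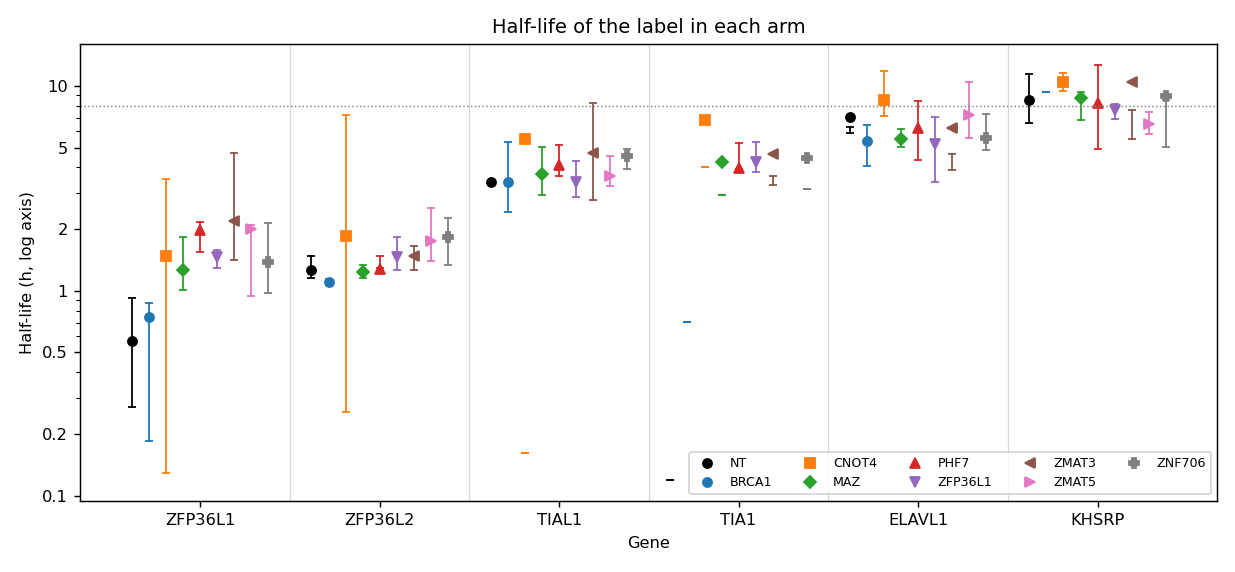
Half-life of the label (y axis, h, log axis) for the 6 genes with a curve (x axis) in each arm, with symbols for the curve through the replicate means, bars for the range of single-replicate curves and a dotted line at the last sample, 8 h. ZFP36L1 and ZFP36L2 lie below TIAL1, ELAVL1 and KHSRP in every arm with a curve for them, while CNOT4 bars are wide.

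Differences in the rate of label loss were tested with edgeR on the conversions, with T coverage as offset. In all, 0 of 48 tests passed, beside 0.146% of 58406 tests over all genes, with 13 at an unadjusted p under 0.05 and 0 calls by limma. By arm the background was 0.573% in ZMAT3, 0.307% in PHF7, 0.0815% in ZFP36L1, 0.0684% in ZMAT5, 0.0579% in CNOT4, 0.0402% in MAZ, 0.0136% in ZNF706 and 0.0% in BRCA1. At an unadjusted p under 0.05, the share of all genes ran from 511 of 7463 in MAZ to 842 of 7499 in ZMAT3. ZFP36L2 came closest. Its slope was 0.68 to 0.69 per h in NT and 0.23 per h in CNOT4, 0.34 in BRCA1, 0.37 in ZFP36L1, 0.38 in ZMAT3, 0.41 in PHF7, 0.45 in ZNF706 and 0.46 in MAZ and ZMAT5. The smallest adjusted p was 0.05006 in ZMAT3, with a difference of -0.30 per h (SE 0.073), and the next 0.093 in the libraries labelled ZFP36L1 (-0.31 per h, SE 0.077). At 8 h the NT libraries were at 0.0%, 0.00697% and 0.0181%, and ZMAT3 at 0.173%, 0.176% and 0.288%, with no overlap. At 2 h NT stood at 0.658%, 0.875% and 0.977% and ZMAT3 at 1.57%, 1.70% and 2.14%, again without overlap, from a 0 h level that was also higher in ZMAT3. The label pooled over genes did not overlap at these times either. Its lowest ZMAT3 library was at 2.24% at 2 h and 1.01% at 8 h, and its highest NT library at 1.41% and 0.645%. The lack of overlap is therefore not particular to ZFP36L2. The 8 comparisons share the NT libraries and with them the 3 low ZFP36L2 values at 8 h. Without the libraries that stand apart, the CNOT4 difference for ZFP36L2 was -0.23 (SE 0.19, adjusted p = 0.97) in place of -0.46 (SE 0.13, adjusted p = 0.38).

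For the other members the differences in slope ran from -0.07 to 0.37 per h for ZFP36L1, -0.06 to 0.04 for KHSRP, 0.01 to 0.08 for ELAVL1, -0.14 to 0.02 for TIAL1 and 0.03 to 0.23 for TIA1. Without the libraries that stand apart, 3 CNOT4 values lay outside these ranges, -0.25 for TIAL1 (SE 0.086, adjusted p = 0.52), -0.11 for ZFP36L1 (SE 0.21) and -0.018 for ELAVL1 (SE 0.046), the last at 0.016 with them. In the libraries labelled ZFP36L1, the slope of ZFP36L1 was 0.52 per h against 0.38 in NT, a difference of 0.14 (SE 0.13, edgeR adjusted p = 0.79). The ZFP36L1 slope in NT rests on 984 conversions at 0 h and on 42, 10 and 36 at the later times.

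Genes tied to these proteins were read from lists, each described by its calls and its median. The CCR4-NOT subunits, which ZFP36 proteins recruit, had 1 up and 5 down of 10 in CNOT4 (median log2 -0.30, all genes 0.08) and 1 up and 4 down in ZFP36L1 (-0.14, all genes 0.15). That is 6 of 10 beside 27.0% of all genes in CNOT4 and 5 of 10 beside 40.0% in ZFP36L1. The deadenylase subunit CNOT6 was lower in CNOT4 (log2 -1.60) and ZFP36L1 (-0.92), and also in PHF7 (-1.10) and ZNF706 (-0.38). CNOT11, a scaffold-associated subunit, was lower in CNOT4 (-0.85) and ZFP36L1 (-0.94), and also in PHF7 (-0.57), ZMAT3 (-0.64) and ZMAT5 (-0.39). In the libraries labelled ZFP36L1 the related deadenylase CNOT6L was higher (1.15). PHF7 had 3 of 10 down (beside 8.41% of all genes), ZMAT5 2 (beside 9.51%) and BRCA1 0. MAZ, ZMAT3 and ZNF706 had 1 of 10 each, beside 8.74%, 10.2% and 5.15%. When the libraries that stand apart were left out, the counts in CNOT4 and PHF7 were equal to these, with medians of -0.48 and -0.14, beside 27.6% and 13.98% of all genes, the backgrounds of all such counts in the next 4 lists.

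Of 9 kinases, phosphatase and 14-3-3 genes that act on or bind phosphorylated ZFP36 proteins, CNOT4 had 1 up and 6 down, 77.8% beside 27.0% of all genes (median log2 -0.53 beside 0.08), and ZFP36L1 1 up and 5 down, 66.7% beside 40.0% (-0.29 beside 0.15). In both the 14-3-3 gene YWHAB was the one higher (0.80 and 0.76), with YWHAE (-1.01 and -0.83) and YWHAG (-1.04 in each) lower. MAPKAPK2, the kinase downstream of p38, was lower in ZMAT3, ZMAT5 and ZNF706 (-0.39, -0.52 and -0.59). In these arms 1, 2 and 3 of 9 passed, all downward, which is 11.1% beside 10.2%, 22.2% beside 9.51% and 33.3% beside 5.15%. MAZ and PHF7 had 1 each, 11.1% beside 8.74% and 8.41%, and BRCA1 0. With those libraries left out, CNOT4 had 2 up and 6 down (median -0.37) and PHF7 1 up and 2 down (0.089), 88.9% and 33.3%.

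Reported ZFP36-family targets, mRNAs with AU-rich elements such as growth and immediate-early genes, had 2 up and 8 down of 23 tested in the libraries labelled ZFP36L1. Their share called was 43.5% beside 40.0% of all genes, with a median log2 of -0.19 beside 0.15. MYC (-1.77), JUN (-1.03), MCL1 (-1.05) and PIM3 (-0.47) were lower there, and in CNOT4, against the same NT libraries, they were at -2.31, -0.96, -0.95 and -0.70, all called, where 2 rose and 5 fell of 23, 30.4% beside 27.0% of all genes. In ZMAT5 7 rose and 2 fell of 24 tested, 37.5% beside 9.51% of all genes, with a median of 0.31 beside 0.06. DUSP1 (1.41), IER3 (1.23), MCL1 (0.54) and JUN (0.40) were higher there. PHF7 had 3 down of 23, 13.0% beside 8.41% of all genes. MAZ, ZMAT3 and ZNF706 had 1 down each of 23, 4.35% beside 8.74%, 10.2% and 5.15%, all below the share of all genes. BRCA1 had 0. Leaving out the libraries that stand apart, CNOT4 had 3 up and 5 down of 23 (34.8%) and PHF7 1 up and 3 down of 24 (16.7%). In label loss, MCL1 in ZMAT3 was the 1 gene of this list to pass in any arm (-0.16 per h, edgeR adjusted p = 0.049).

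Reported ELAVL1-bound mRNAs had 2 up and 5 down of 11 tested in CNOT4 (median -0.50, all genes 0.08) and 2 up and 7 down of 12 in ZFP36L1 (-0.54, all genes 0.15), which is 63.6% beside 27.0% of all genes and 75.0% beside 40.0%. PTMA (-2.01 and -1.21), ACTB (-1.28 and -1.32) and EIF4E (-1.27 and -0.95) were lower in both, while XIAP was higher in CNOT4 (1.07). In ZMAT5 the cell cycle inhibitor CDKN1B (0.89) and MSI1 (0.81) were higher and none was lower. MAZ and PHF7 had 2 of 11 down each, 18.2% beside 8.74% and 8.41%, the same share as in ZMAT5, where 9.51% of all genes passed. ZNF706 had 1, 9.09% beside 5.15%, and ZMAT3, beside 10.2%, and BRCA1 had 0. With the same libraries left out, CNOT4 had 2 up and 5 down of 12 (58.3%, median -0.16) and PHF7 3 up and 2 down of 12 (41.7%).

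Of 19 further AU-rich and U-rich binders listed, 12 of 16 tested passed in CNOT4, 5 up and 7 down, and 12 of 17 in ZFP36L1, 6 up and 6 down. These are 75.0% beside 27.0% of all genes (median 0.05 beside 0.08) and 70.6% beside 40.0% (-0.19 beside 0.15). YBX1 (-1.10 and -0.54), HNRNPC (-0.92 and -0.49) and HNRNPAB (-0.91 and -0.56) were lower in both, and HNRNPD (AUF1), a binder of AU-rich elements, was lower in CNOT4 (-0.58). CELF1, which binds GU-rich elements, was lower in ZMAT5 (-0.85), MAZ (-0.69) and PHF7 (-0.38), where it was the single call of the list. A single call is 5.88% of the list, below the share of all genes called in ZMAT5 (9.51%), MAZ (8.74%) and PHF7 (8.41%). ZMAT3 had 2 up and 1 down of 17, 17.6% beside 10.2%. YBX1 (0.29) and HNRNPAB (0.30) were the 2 higher there, and HNRNPA0 (-0.28) the 1 lower. ZNF706 had 1 down, RC3H2, beside 5.15%, and BRCA1 0. Leaving out the libraries that stand apart, CNOT4 had 5 up and 7 down of 17 (70.6%, median -0.11) and PHF7 1 up and 2 down (17.6%).

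The mRNAs whose level followed each member most closely were sought over the 36 means of arm and chase time, among 7507 genes of at least 20 CPM on average. Correlations are descriptions, since the points share libraries and read composition. KHSRP was followed by ZBTB7A (Pearson r 0.94) and PELP1 (0.93), TIA1 by CGGBP1 (0.91) and NUP85 (0.90), and ZFP36L2 by PHF10 (0.90) and LUC7L2 (0.89). ELAVL1 was followed by NONO (0.90) and PSMG1 (0.88), ZFP36L1 by MAP3K3 (0.89) and CRK (0.88), and TIAL1 by H3-3B (0.80). ZFP36 was left out for its low counts.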

How the data were processed

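SLAM-seq was measured in 108 HEK293T libraries. The study calls the replicates biological. The authors made QuantSeq 3′ libraries, ran SlamDunk 0.4.3 against hg38 with multimapped reads kept, and deposited, per 3′ UTR interval, whole-number counts of reads, T>C reads, multimapped reads, covered T positions and conversions, all without normalisation. The deposited CPM column, scaled by the authors to mapped reads, set only the 5 CPM filter. No molecular identifiers were used here, so limits cover counting error only.

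The 69079 intervals were summed per gene and named with GENCODE release 44 (19501 of 19761 identifiers). No counted base of the 7 genes was shared with another gene, and at most 1.58% of their reads were multimapped. Levels are TMM-normalised CPM. Level tests used edgeR 4.0.16 (quasi-likelihood, filterByExpr, chase time as factor, 19 residual degrees of freedom). CNOT4 and ZFP36L1 were also set against each other at 0 to 4 h, and each of MAZ, PHF7, ZMAT3, ZMAT5 and ZNF706 against the other 4. Label loss and 0 h label were tested with edgeR on conversions offset by the log of covered T positions. A gene entered these tests where 2 or more replicates of every chase time exceeded 5 CPM in both arms. All p-values were adjusted over all genes tested (Benjamini-Hochberg). DESeq2 1.42.0 and limma 3.58.1 were alternatives, with other settings named in the closing section. The tests were checked on simulated data.

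Genes named beside the 7 were, per list and comparison, up to 4 calls with the smallest adjusted p, and per member the 2 mRNAs of highest correlation, of which 1 is not reported here. Members and lists were chosen with earlier results of these data known. Lists were of CCR4-NOT subunits, ZFP36 kinases, phosphatase and 14-3-3 partners, reported ZFP36-family targets, reported ELAVL1-bound mRNAs, other AU-rich and U-rich binders, HEK293T markers and markers of other cell types.

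Library depth was 63659 to 30750027 reads. No pair of libraries held identical counts. Replicate numbers did not pair libraries across arms: the deviations of same-numbered libraries correlated at -0.04 to 0.07.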

Additional observations from a re-analysis of the deposited data

How the results depend on the processing

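The 18 member calls were 16 to 20 with DESeq2, DESeq2 size factors, no filter on low counts, all 9 arms in 1 fit, the interval with the most reads, no multimapped reads, or without the libraries that stand apart. Of the 18, 13 to 17 were called in the same direction without replicate 1, 2 or 3 and 8 in the 0 h libraries alone. Against other hairpin arms 11 of 49 tests passed, of which 3 were among the 18 in the same direction. The share of all genes called there was 3.19% in CNOT4 and ZFP36L1, 8.45% in MAZ and 12.6% in PHF7. It was 7.75% in ZMAT3, 14.9% in ZMAT5 and 9.11% in ZNF706. There CNOT4 and ZFP36L1 were set only against each other, so each member entered from both sides with the sign reversed. The ZFP36L1 gene was called from both sides. A member that moved the same way in both arms could not keep both calls. With the replicate block there were 19 calls, of which ZFP36L2 in PHF7 was added, and the 0 calls in label loss, chase dependence and NT over time stayed 0. Against other hairpin arms ZFP36L1 in its own arm became -1.04 from 0.80. There too, KHSRP turned to -0.23 in CNOT4, 0.19 in MAZ, 0.12 in ZMAT3 and 0.28 in ZNF706, and in ZFP36L1 ELAVL1 turned to 0.14, TIAL1 to 0.10 and ZFP36L2 to 0.011. The baseline itself differs there, and the cause was not tested. ZFP36L1 in its own arm was 0.60 in the 0 h libraries alone and 0.59 to 1.02 without replicate 1, 2 or 3.

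Label loss gave 1 call, ZFP36L2 in ZMAT3, over 1 CPM (adjusted p = 0.039), relative to the pooled rate (0.044) or in the interval with the most reads (0.043), and 0 in the other alternatives. Label at 0 h gave 10 or 11 calls with limma, over 1 CPM or in that interval, 3 to 6 without 1 replicate, and 0 relative to the pooled rate, where KHSRP turned to -0.043 and TIAL1 to -0.055 in MAZ and both to -0.11 in ZMAT3. Chase dependence and NT over time stayed at 0 calls in each alternative. Member half-lives kept numbered 43 to 52 against 50. Low counts and scatter between replicates limit ZFP36 throughout, and depth limits the late label of ZFP36L1.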
